A study of Mus musculus with 4 samples.

Results

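The 10 genes described here encode proteins that bring fatty acids into cells and that build, coat and break down lipid droplets. They are Cd36, Lpl, Fabp4, Lipe, Pnpla2, Plin1, Plin2, Plin4, Dgat1 and Dgat2, named by symbol. All 10 of the 10 were measured, each by 1 probe set, among 19938 genes in all. The samples were testes of male Lhcgr KO mice and of control WT mice, 2 arrays in each group. Every mouse, control or knockout, had received busulfan at 44 mg/kg and was killed 4 weeks later. Busulfan is an alkylating drug that kills dividing germ cells, so the tissue is enriched in somatic cells. Lhcgr encodes the receptor for luteinizing hormone, the pituitary signal for androgen synthesis in Leydig cells. The labels give no strain, age or way in which the allele was made, and they do not say whether each array holds RNA of a separate animal. The p-values therefore speak only of how far these arrays differ, and that spread could be technical.

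A fatty acid reaches a cell from albumin or from circulating lipoproteins. Lipoprotein lipase (Lpl) releases it from lipoprotein triglyceride at the capillary wall, CD36 takes it up at the plasma membrane, and fatty acid binding proteins such as FABP4 carry it in the cytosol. The acyltransferases DGAT1 and DGAT2 add the last acyl chain of triglyceride, which is stored in droplets coated by perilipins. Adipose triglyceride lipase (Pnpla2) and hormone-sensitive lipase (Lipe) take the store apart again. Leydig cells hold droplets rich in cholesteryl ester, a substrate of steroid synthesis, and hormone-sensitive lipase hydrolyses such esters too. Sertoli cells also hold droplets and draw energy from fatty acids.

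In the knockout testes Cd36 fell, and it was the only gene of the 10 that passed the test. The fitted size was 11.5-fold, with a 95% confidence interval of 6.67-fold to 19.7-fold, but the knockout values lie near the floor of the arrays and the size depends on that floor. Lpl and the droplet coat gene Plin1 had higher values on both knockout arrays than on both control arrays, at 1.57-fold and 1.49-fold, without passing it. Pnpla2, Dgat1 and Dgat2 had lower values on both knockout arrays, at 0.79-fold to 0.83-fold of control, also without passing it. In Lipe, Plin2, Plin4 and Fabp4 the groups overlapped. The test was limma on log2 intensity with Benjamini-Hochberg adjustment over all 19938 genes, and a call is an adjusted p under 0.05. The 95% intervals were taken gene by gene without that adjustment, so an interval that leaves out no change is not a call.

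The stretches of genome upstream of 3 of the genes are shown first, since they can be read against the values that follow: Cd36, the gene that fell, Plin2, whose window shares a match with that of Cd36, and Pnpla2, which works at the other end of the droplet's life. Each is the 250 bases before the gene's start in RefSeq, 5′ to 3′ on the gene's strand, build GRCm38.p6. Cd36 lies on the minus strand at chr5:17835897-17836146, Plin2 on the minus strand at chr4:86670060-86670309 and Pnpla2 on the plus strand at chr7:141454938-141455187. Capitals mark every match to 1 of 7 motifs searched on both strands.
Cd36: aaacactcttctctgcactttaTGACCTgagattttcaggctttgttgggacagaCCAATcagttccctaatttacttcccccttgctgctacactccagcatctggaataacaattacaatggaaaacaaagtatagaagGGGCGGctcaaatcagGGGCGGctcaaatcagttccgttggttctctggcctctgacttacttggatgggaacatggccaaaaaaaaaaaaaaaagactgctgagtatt
Plin2: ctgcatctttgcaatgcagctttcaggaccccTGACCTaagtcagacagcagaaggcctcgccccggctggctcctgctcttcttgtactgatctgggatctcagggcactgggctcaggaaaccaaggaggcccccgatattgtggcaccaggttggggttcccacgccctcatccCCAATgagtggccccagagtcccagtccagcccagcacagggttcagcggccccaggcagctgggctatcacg
Pnpla2: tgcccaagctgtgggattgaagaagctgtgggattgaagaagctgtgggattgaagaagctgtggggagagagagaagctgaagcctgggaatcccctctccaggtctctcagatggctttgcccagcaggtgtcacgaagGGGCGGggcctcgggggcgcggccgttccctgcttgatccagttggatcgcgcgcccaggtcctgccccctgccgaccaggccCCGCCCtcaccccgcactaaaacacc

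The half-site of many nuclear receptors was searched as AGGTCA. Its extended form, which overlaps it, was searched as AAGGTCA. The cyclic AMP response element was searched as TGACGTCA. The E-box was taken as CACGTG, the CCAAT box by the letters of its name, the GC box as GGGCGG and the TATA box as TATAAA. Both Cd36 and Plin2 hold the half-site on the opposite strand, starting 228 and 218 bases before the start, and 14% of all 32851 windows of this length hold 1. Both also hold the CCAAT box, as 33.8% of windows do. Cd36 has the GC box in 2 copies and Pnpla2 also in 2, against 32.7% of windows with at least 1. The copies in Cd36 sit in a tandem repeat of 16 bases, aggggcggctcaaatc. An exact repeat of that length or more, with its copies adjacent or apart, is held by 1.98% of windows, and tandem repeats alone were not counted. None of the 7 windows found for these genes held the cyclic AMP response element, which 1.55% of windows hold, and none held the extended half-site or the TATA box. Of the 10 genes 6 have a window in the table, Lipe with 2 starts, and Plin1 had no match to any of the motifs. Lpl, Fabp4, Dgat1 and Dgat2 have no entry there. A match is a run of letters and not evidence that a factor binds.

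Among the uptake genes, Cd36 (probe set 10528207), the scavenger receptor that takes up long-chain fatty acids and oxidised lipoproteins, measured 9.69 and 8.81 log2 intensity units in control replicates 1 and 2. In knockout replicates 1 and 2 it measured 6.08 and 5.38. Both knockout arrays lay far below both control arrays, and in each group replicate 2 was the lower. The group means were 9.25 ± 0.62 (SD, n = 2) in control and 5.73 ± 0.49 (SD, n = 2) in knockout, a log2 change of -3.52 ± 0.33 (SE, adjusted p = 0.00555). Cd36 ranked 67 of 19938 genes by p-value. The control mean lay at percentile 76.2 of all genes and the knockout mean at percentile 3.66, close to the floor of 16 intensity units that every array shares. The fitted size depends on that floor, with log2 fold changes of -2.91 after adding 32 to the intensities and of -3.98 after subtracting 15.

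The call for Cd36 was lost when either knockout array was left out (adjusted p = 0.0847 without replicate 1 and 0.110 without replicate 2) and with a robust prior (0.0509). Fits without a knockout array called 18 and 23 genes in all, and the fall of Cd36 itself stayed between -3.96 and -3.08 when any array was left out. In this bulk tissue, fewer cells of a type and less RNA per cell cannot be told apart.

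Lpl (probe set 10572130), the secreted lipase, measured 7.70 and 7.34 log2 units in the controls and 8.19 and 8.15 in the knockouts. Both knockout arrays were above both control arrays and lay closer together than the controls did. Its log2 change was 0.65 ± 0.15 (SE, adjusted p = 0.0730), or 1.57-fold with an interval of 1.24-fold to 2.01-fold. The size rested on which control array was kept, with 0.83 and a passed test without control replicate 1 (adjusted p = 0.0179) and 0.48 without replicate 2 (0.189). With a robust prior Lpl also passed (0.0466).

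Fabp4 (probe set 10497265), the binding protein of adipocytes, macrophages and capillary endothelium, measured 6.68 and 6.75 log2 units in the controls and 6.59 and 6.87 in the knockouts. The knockout arrays enclosed the control arrays. Its fold of knockout over control was 1.01, with an interval of 0.809 to 1.26 (adjusted p = 0.959). A change outside these bounds was thus not seen, while a smaller one could not be resolved with these arrays. Its signal was weak, at percentile 23.4 of all genes, and the bounds hold for the measured signal alone. Its sign turned with the scaling, with a log2 change of -0.11 after quantile normalization and -0.05 after median centring.

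**Figure D1:**
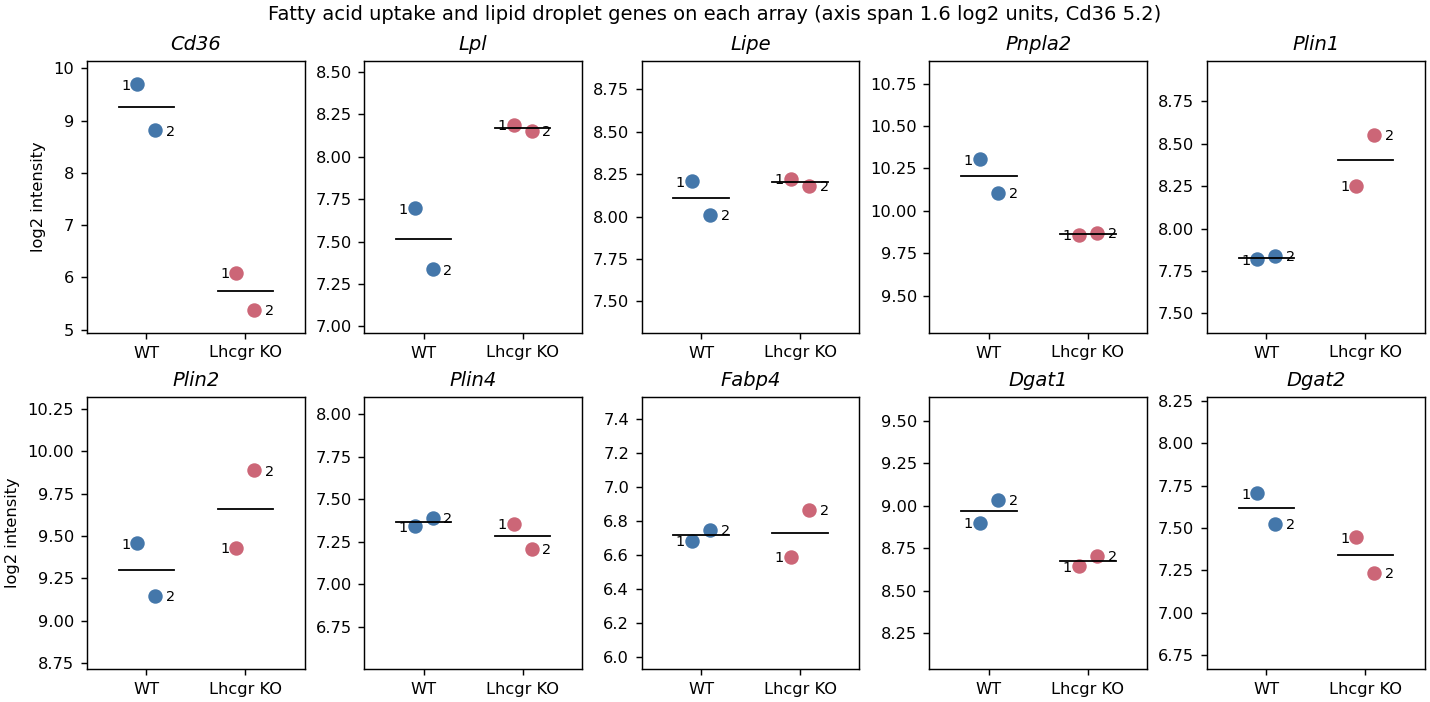
Log2 intensity of the 10 genes on each array, wild type in blue and Lhcgr KO in red, with the replicate number beside each point and a line at the group mean (n = 2 arrays per group); the vertical axis of Cd36 spans more units than the others. Cd36 falls from a mean of 9.25 to 5.73, Lpl and Plin1 lie higher on both knockout arrays, Pnpla2, Dgat1 and Dgat2 lie lower on both, and the other 4 overlap.

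The perilipins coat the droplet and set the access of lipases to it. Plin1 (probe set 10564795), the coat protein of adipocyte and steroidogenic cell droplets that is phosphorylated when cyclic AMP rises, measured 7.82 and 7.84 log2 units in the controls. In the knockouts it measured 8.25 and 8.55. The control arrays were nearly equal and both knockout arrays lay above them. The log2 fold change was 0.57 ± 0.14 (SE), 1.49-fold with an interval of 1.19-fold to 1.87-fold, and the adjusted p was 0.0861. It ran from 0.42 without knockout replicate 2 to 0.73 without knockout replicate 1, and no alternative brought it past the test.

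Plin2 (probe set 10514221), the coat protein found on droplets of most cell types, measured 9.46 and 9.15 log2 units in the controls and 9.43 and 9.89 in the knockouts. Only knockout replicate 2 stood above both controls. The log2 fold change was 0.36 ± 0.19 (SE, adjusted p = 0.292), and 0.13 without that array. Plin4 (probe set 10451932), a coat protein of small droplets in adipocytes and muscle, measured 7.34 and 7.39 log2 units in the controls and 7.35 and 7.21 in the knockouts. Its groups overlapped, and its fold was 0.944 with an interval of 0.779 to 1.14 (adjusted p = 0.667).

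The lipases of the droplet did not pass the test. Pnpla2 (probe set 10558921), which makes the first cut in triglyceride, measured 10.30 and 10.11 log2 units in the controls and 9.86 and 9.87 in the knockouts. The knockout arrays agreed closely and both were below the controls. The log2 fold change was -0.34 ± 0.12 (SE, adjusted p = 0.177), a fold of 0.79 with an interval of 0.646 to 0.965. Lipe (probe set 10561031) measured 8.21 and 8.01 log2 units in the controls and 8.22 and 8.18 in the knockouts. Control replicate 2 was the lowest and the other arrays were nearly level. Its fold was 1.07, with an interval of 0.872 to 1.30 (adjusted p = 0.645).

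Of the acyltransferases that complete triglyceride, Dgat1 (probe set 10429926), an enzyme of the endoplasmic reticulum with several membrane spans, measured 8.90 and 9.04 log2 units in the controls and 8.64 and 8.71 in the knockouts. Dgat2 (probe set 10565775), an unrelated protein with the same activity that also works at the droplet surface, measured 7.71 and 7.53 in the controls and 7.45 and 7.24 in the knockouts. In both genes the knockout arrays lay below the controls by small amounts. The log2 fold changes were -0.29 ± 0.12 (SE, adjusted p = 0.205) for Dgat1 and -0.27 ± 0.13 (SE, adjusted p = 0.262) for Dgat2. Their folds were 0.816 (interval 0.674 to 0.988) and 0.827 (interval 0.664 to 1.03).

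Against all genes, 1 of the 10 was called, a lower one, where 3.1% of all genes were called, 2.14% lower and 0.963% higher. The groups did not overlap in 6 of the 10, 2 higher and 4 lower in the knockout. Among all genes 59.2% did not overlap, 36.8% higher and 22.4% lower, so the count of separated genes is close to that of the whole array. The median log2 fold change of the 10 was -0.04, against 0.07 over all genes. The 9 genes other than Cd36 had fitted changes between -0.34 and 0.65.

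**Figure D2:**
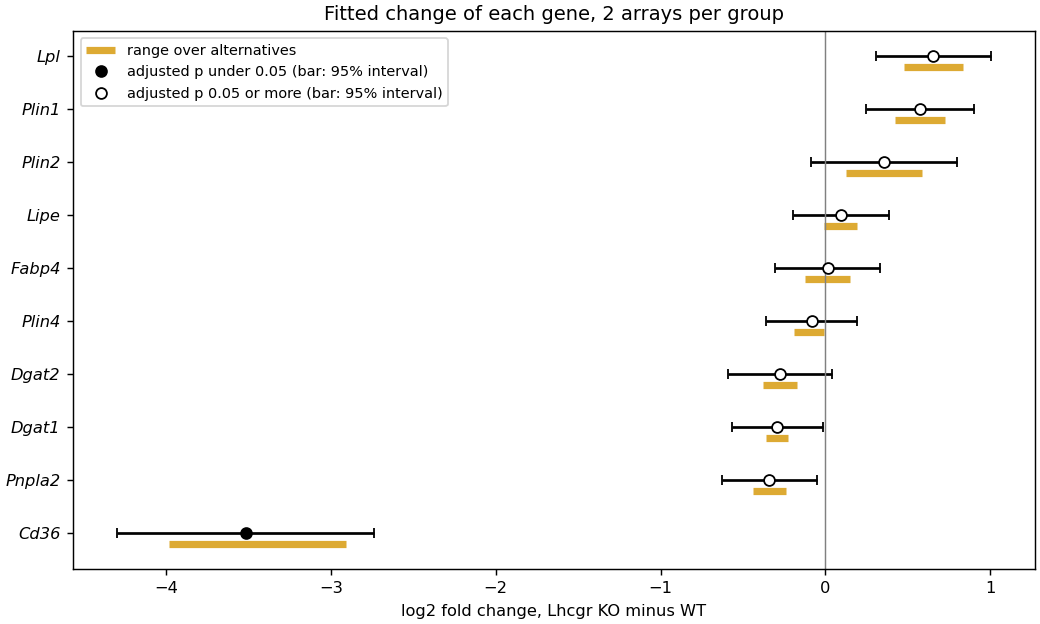
Fitted log2 fold change of each gene, Lhcgr KO minus WT, with its 95% confidence interval (black) and the range over the alternative settings, arrays left out included (yellow); the filled point passed the test. Cd36 at -3.52 stands apart from the others, which lie between -0.34 and 0.65.

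Cell types that could carry these genes were checked through marker lists. Over all genes, 2.14% were called lower and 0.963% higher. Of 11 measured markers of adult Leydig cells 6 fell, among them Hsd3b6, Star and Cyp11a1. The groups were apart in 9 with the knockout lower and in 1, Ces1e, with it higher, against 22.4% and 36.8% of all genes. In Hsd11b1 they overlapped. The summed intensity of the Leydig markers was 27230 and 15343 in the controls against 5339 and 4127 in the knockouts. Of 12 macrophage markers 5 fell, among them Csf1r, Folr2 and Lyz2. The groups were apart, knockout lower, in all 12, against 22.4% of all genes. Their sums were 8824 and 11055 in the controls and 5068 and 5301 in the knockouts. Among the control arrays Cd36 and the Leydig sum were both higher in replicate 1, and the macrophage sum was higher in replicate 2. Hsd3b6 differed from the Leydig sum, at 12.21 and 12.32 log2 units in control replicates 1 and 2. The other Leydig markers were higher in replicate 1, and each such contrast sets 1 array against 1. The part of either cell type in the fall of Cd36 was not tested.

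Endothelial cells, another known site of Cd36 and Fabp4, had marker sums of 3254 and 3198 in the controls and 3683 and 3645 in the knockouts. Of 12 measured, 1 rose, Sox18, and 0 fell. The groups were apart in 2 with the knockout higher and in 5 with it lower, against 36.8% and 22.4% of all genes. The 2 higher were Sox18 and Cdh5, and the higher sum rests on them. The median log2 fold change of the endothelial markers was -0.04. Of 13 adipocyte markers 0 rose and 1 fell, Gpd1, which makes glycerol phosphate for triglyceride in many cell types. Their sum was 2895 and 3081 in the controls and 1990 and 2427 in the knockouts. Gpd1 was by far the strongest of the 13, at 10.64 and 10.90 log2 units in the controls. In the knockouts it measured 9.40 and 9.95, and the lower sum rests on that gene. The groups were apart in 8 of the 13 with the knockout higher and in 3 with it lower, against 36.8% and 22.4% of all genes. Apart from Gpd1 the markers were weak, at percentile 37.7 of all genes or lower. The shares over all genes were not matched for signal, so the counts do not show more adipocyte RNA. The median log2 fold change was 0.17. Adipoq, the adipocyte hormone adiponectin, measured 6.09 and 6.01 log2 units in the controls and 6.33 and 6.42 in the knockouts, at percentile 11.3 of all genes. The part of adipocytes in the values of Lpl and Plin1 was not tested.

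Sertoli cells, the defining somatic cells of the tubules, were well represented, with marker sums of 33870 and 31413 in the controls and 35060 and 35698 in the knockouts. Of their 12 markers 1 rose, Amh, and 0 fell. The groups were apart in 8 with the knockout higher and in 1 with it lower, against 36.8% and 22.4% of all genes. Their median log2 fold change was 0.22. Peritubular myoid markers had sums of 10540 and 9659 in the controls and 12779 and 10814 in the knockouts, and of the 8 measured none passed the test. The groups were apart in 3 of them with the knockout higher and in 3 with it lower. Their median log2 fold change was 0.04, so the higher sum does not stand for the list. Control replicate 2 stood apart in genes of the epididymis and efferent ducts, with a summed intensity of 11889 against 1119 to 1342 on the other arrays, and in 6 of the 12 it was more than 1 log2 unit above every other array. Without that array the log2 fold change of Cd36 was -3.96, that of Lpl 0.48, of Plin1 0.58, of Pnpla2 -0.44 and of Dgat1 -0.23. Without control replicate 1 instead, that of Cd36 was -3.08. Either fit leaves 1 control array, so the spread among controls cannot be gauged.

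**Figure D3:**
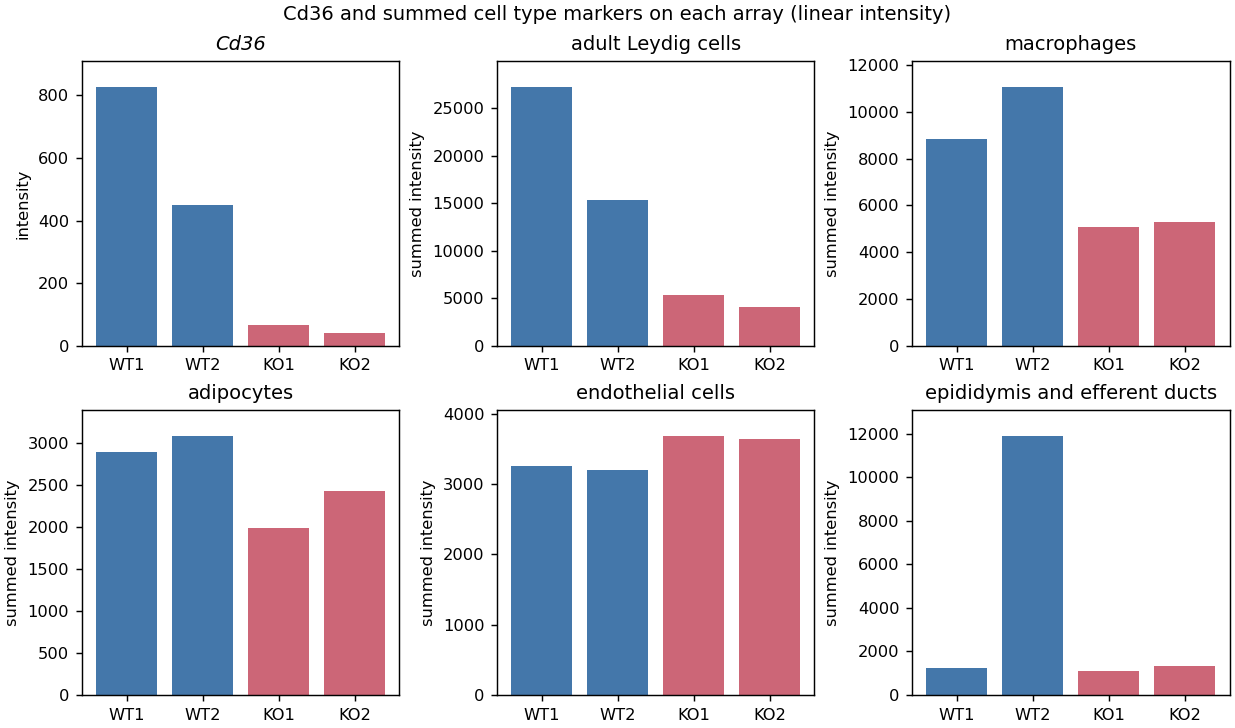
Linear intensity of Cd36 and summed linear intensity of 5 marker lists on each array, wild type in blue and Lhcgr KO in red. Cd36 and the Leydig, macrophage and adipocyte sums are lower on both knockout arrays, the adipocyte sum through Gpd1. Endothelial sums are 3198 to 3683 throughout, and the epididymal sum is high on control replicate 2 alone, at 11889.

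The other genes of the pathway were taken by role, 91 measured of 98 listed. Of these 1 rose and 7 fell, shares of 1.1% and 7.69%, against 0.963% and 2.14% of all genes. The lists were chosen with earlier results of these data known, so the shares are a description. The median log2 fold change of the 91 was 0.02. Groups were apart in 53 of them, or 58.2%, against 59.2% of all genes.

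Among 20 other transporters and binding proteins for fatty acids 2 fell. Fabp5, a binding protein of epithelia and macrophages, measured 9.98 and 10.02 log2 units in the controls and 8.79 and 9.24 in the knockouts, a log2 change of -0.99 ± 0.17 (SE, adjusted p = 0.0317). Slc27a3, a member of the fatty acid transport protein family with acyl-CoA synthetase activity, measured 9.06 and 9.13 in the controls and 8.42 on both knockout arrays, a change of -0.67 ± 0.11 (SE, adjusted p = 0.0305). Both genes were lower on each knockout array than on either control. Fabp3, the heart-type binding protein and named after its values were seen, measured 11.79 and 10.46 in the controls and 9.97 and 9.02 in the knockouts. With arrays this far apart inside each group its change of -1.62 ± 0.46 (SE) had an adjusted p of 0.123.

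Of 11 partners and regulators of lipoprotein lipase 1 fell and none rose. Apoc1, an apolipoprotein that inhibits the lipase, measured 10.21 and 9.43 log2 units in the controls and 7.61 and 6.88 in the knockouts. This is a fall of 5.97-fold, a log2 change of -2.58 ± 0.31 (SE, adjusted p = 0.0118, and 0.0739 with a robust prior). As for Cd36, replicate 2 was the lower in each group. Gpihbp1, the endothelial protein that anchors the lipase to the capillary wall, was also named after its values were seen. It measured 7.74 and 7.90 log2 units in the controls and 8.01 and 8.48 in the knockouts, a change of 0.42 ± 0.17 (SE, adjusted p = 0.217).

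Of 15 lipolysis partners and other lipases 2 fell. Mgll, which releases the last fatty acid of triglyceride, measured 7.44 and 7.66 log2 units in the controls and 6.47 and 6.43 in the knockouts, a change of -1.10 ± 0.12 (SE, adjusted p = 0.00943). Lipa, the lysosomal acid lipase that digests lipids taken up from outside, measured 10.17 and 10.26 in the controls and 9.23 and 9.12 in the knockouts, a change of -1.04 ± 0.11 (SE, adjusted p = 0.00884). In both genes the arrays within a group were close and the groups were about 1 log2 unit apart. Abhd5, the coactivator of the Pnpla2 product, and G0s2, its inhibitor, named after their values were seen, had changes of -0.19 ± 0.13 (SE, adjusted p = 0.380) and 0.24 ± 0.12 (SE, adjusted p = 0.268).

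Of 14 other coat and droplet-forming proteins 1 fell. Bscl2, which encodes seipin, a protein at the contact of droplet and endoplasmic reticulum, measured 10.69 and 10.37 log2 units in the controls and 9.67 and 9.64 in the knockouts, a change of -0.87 ± 0.14 (SE, adjusted p = 0.0277). The remaining perilipins, Plin3 and Plin5, named after their values were seen, had changes of 0.07 ± 0.14 (SE, adjusted p = 0.776) and -0.12 ± 0.12 (SE, adjusted p = 0.529). None of the 5 perilipins thus passed the test.

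Of 16 enzymes of glycerolipid and steryl ester synthesis 1 fell. Agpat2, which adds the second acyl chain to the glycerol backbone, measured 8.50 on both control arrays and 7.81 and 7.86 log2 units in the knockouts, a change of -0.66 ± 0.11 (SE, adjusted p = 0.0305). Among 15 transcription factors and coactivators of the programme 1 rose. Ppargc1a, a coactivator known for driving mitochondrial fatty acid oxidation, measured 7.69 and 7.62 in the controls and 8.61 and 8.87 in the knockouts, a rise of 2.12-fold (log2 change 1.09 ± 0.13, SE, adjusted p = 0.0115). Pparg, the nuclear receptor of adipocytes of which Cd36, Lpl, Plin1 and Fabp4 are known targets, was named after its values were seen. It measured 7.67 and 7.85 log2 units in the controls and 7.69 and 7.87 in the knockouts, a change of 0.02 ± 0.13 (SE, adjusted p = 0.921).

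All 8 of these calls were lost when either knockout array was left out, and those of Slc27a3 and Agpat2 also without control replicate 2. The falls stand beside the lower Leydig and macrophage sums given above, and the part of those cell types in them was not tested.

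**Figure D4:**
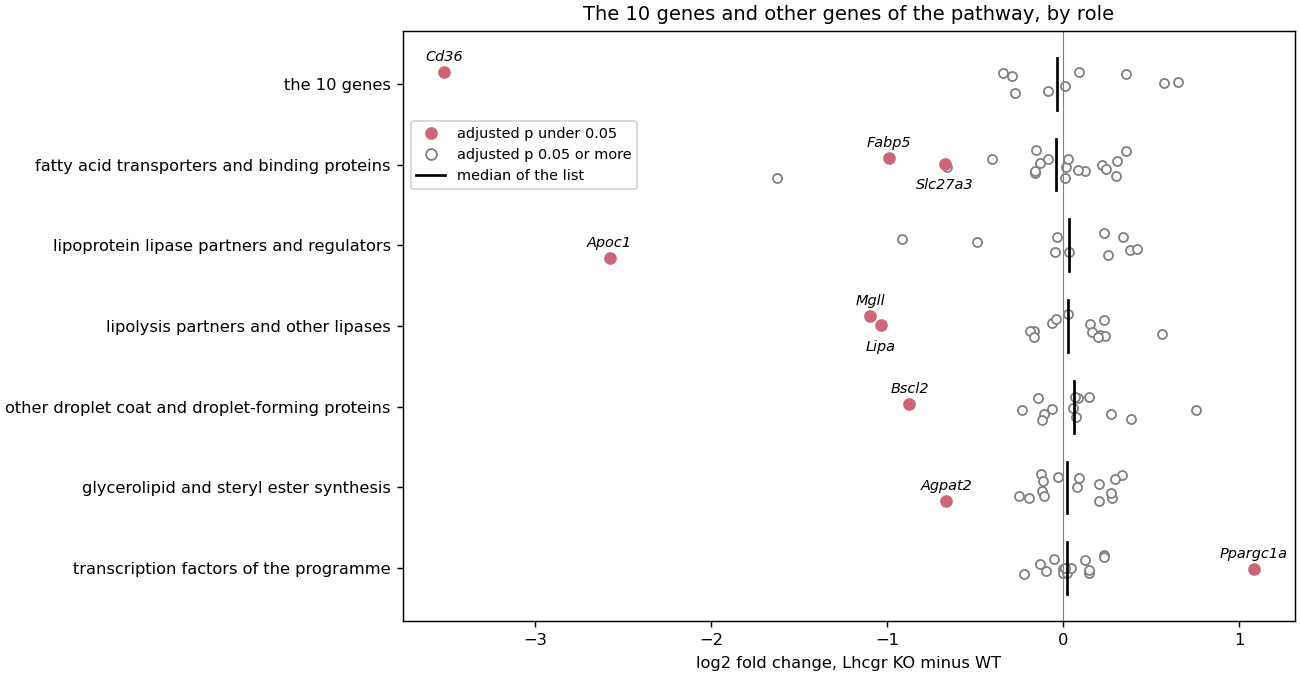
Log2 fold change, Lhcgr KO minus WT, of the 10 genes and of the other pathway genes by role (1 point per gene), with genes past the test filled and named and a line at each list's median. The medians lie between -0.04 and 0.06, with 7 further genes that fell and Ppargc1a the one that rose.

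The genes whose pattern over the 4 arrays was nearest to that of Cd36 were Lrg1, Myoz2, Bhmt, Actn3 and Klk1b24, in that order. Likeness was the root mean square difference between log2 profiles, each centred on its own mean, and it was 0.20 log2 units for Lrg1 and 0.38 to 0.47 for the others. These genes were picked for their likeness to Cd36, so their own falls are a description. Lrg1, a secreted glycoprotein, measured 10.23 and 9.24 log2 units in the controls and 6.92 and 6.30 in the knockouts. Like Cd36 it was lower in replicate 2 of each group, an order that the choice by likeness favours. The other 4 had log2 fold changes between -3.91 (Bhmt) and -2.74 (Klk1b24), and Klk1b24 belongs to a family of near-identical kallikrein genes whose signals a probe set may mix.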

How the data were processed

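Per the labels' protocols, sense-strand cDNA was made from the RNA, marked with biotin and read on 1-colour whole-transcript arrays of Affymetrix. The deposited values are linear intensities per probe set, with a lowest value near 16 on each array and array medians of 198 to 215. The submitters' processing notes name the build mm9, while for background correction, summarization and normalization the sources used here give nothing. Of 28856 probe sets, 21789 carry 1 gene symbol in the platform annotation, 1621 several and 5446 none listed, and those with 1 were used, the highest-mean probe set per gene. By Entrez number 21698 matched RefSeq, and 0 symbols changed. Intensities were taken to log2 and tested with limma 3.58.1 in R 4.3.3 (lmFit, eBayes, two-sided), which was tested on simulated data. No detection calls were used, and the number of arrays limits the precision.

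The 10 genes and all lists were chosen with earlier results of these data known. In each pathway list the genes past the test, up to 4 by size, were named, or where none passed the 2 with the lowest p, and genes named outside this rule are marked in the text. Lhcgr is not analysed here, and the genotype labels rest on the submitters alone. Replicate numbers are shared between the groups, but the labels do not say that they pair the arrays, and the difference between replicates 1 and 2 correlated at 0.0205 between the groups over 19938 genes. Quantile normalization, median centring, filters on weak genes, probe set averaging, other priors, offsets, the replicate block and leaving out each array were tried. Sequences are from RefSeq, build GRCm38.p6.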

Additional observations from a re-analysis of the deposited data

How the results depend on the processing

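Over the settings tried, the sign of the fitted change was kept for 8 of the 10 genes, and it turned for Fabp4 and Lipe, which lay near 0. Fabp4 had -0.11 after quantile normalization, -0.052 after median centring, -0.125 without knockout replicate 2 and 0.15 without knockout replicate 1. It had -0.021 without control replicate 1. Lipe had -0.0058 without control replicate 2 and 0.19 without control replicate 1. With a robust prior 1 of the 10 was called higher (Lpl) and 0 lower. With the lowest 50% of genes left out 0 were called lower, since Cd36 lies among those left out. Subtracting 15 before log2 gave 109 genes higher and 280 lower over the array and 4 lower among the pathway lists. Leaving out each array gave 2 to 313 genes higher and 16 to 726 lower, 0 to 1 of the 10 higher and 0 to 1 lower, and 0 to 2 pathway genes higher and 0 to 8 lower. With the replicate block 173 genes were higher and 399 lower, against 192 and 426, and Cd36 was at -3.52 on the log2 scale (adjusted p = 0.000757). Among the genes named from the pathway lists the block ended the call of Agpat2 alone (adjusted p = 0.0503). With a robust prior Apoc1 no longer passed (0.0739). Fabp5 did not after quantile normalization (0.0523), and Fabp5, Slc27a3 and Bscl2 did not after subtracting 15 (0.0559, 0.0505 and 0.0503). The causes were not tested.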

Other observations

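In the RefSeq gene order on chromosome 17, Plin4, Plin5 and Lrg1 follow each other directly, and Plin3 lies 9 genes further on. Lrg1 was the gene nearest to Cd36 in pattern, with a log2 fold change of -3.12. As it was picked for that likeness, this value is a description with no test. Its neighbours Plin4 and Plin5 had log2 fold changes of -0.08 and -0.12, and Sema6b on its other side had one of 0.28 (adjusted p = 0.244). The neighbourhood was looked up after the values of Lrg1 were seen.

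Cidea, a droplet protein that promotes droplet fusion, had a fitted value of 0.76 ± 0.20 on the log2 scale (SE, adjusted p = 0.111), with 8.46 and 8.37 log2 units in the controls and 9.48 and 8.86 in the knockouts. Lipg, the endothelial lipase, was at -0.92 ± 0.32 (SE, adjusted p = 0.172), with 10.74 and 10.05 in the controls and 9.05 and 9.90 in the knockouts. Both were named after their values were seen, and neither passed the test.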
